A study of Mus musculus with 12 samples.

Results

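The collagen genes of the mouse kidney were followed in whole kidney tissue of 12 mice, 4 in each of 3 groups. Members were taken from the deposited expression table by gene name, as every gene called Col, a type number, a and a chain number, which gave 44 of the 22053 entries in the table. Of these 44, 25 reached 1 FPKM in at least 4 of the 12 mice and were tested, and 19 did not. FPKM is the number of fragments mapped to a gene, divided by transcript length and by the total mapped in the library, so levels of different genes can be compared per length.

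All mice were C57BL/6 wild-type animals, 8 weeks of age when the diet began and 16 weeks at the end. Control mice ate the base diet without adenine and received weekly i.p. PBS. CKD mice ate 0.2% adenine for 8 weeks, a diet that causes chronic kidney disease, and received weekly i.p. PBS as well. CKD+Fe mice ate the same adenine diet and received iron dextran at 0.5 g/kg i.p. each week. Each mouse gave 1 library, so 1 animal is 1 replicate. The control mice were 012811, 012822, 042301 and 042310, the CKD mice 021320, 022301, 110310 and 120102, and the CKD+Fe mice 042702, 062910, 111710 and 122320, and values per mouse are given in this order.

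Collagens are secreted matrix proteins made of helical trimers of alpha chains, and each chain has its own gene. Fibrillar collagens (types I, II, III, V, XI, XXIV and XXVII) assemble into the banded fibers of interstitial matrix and scar. Type IV collagen builds the network of basement membranes under tubules, vessels and the glomerular capillary, and types XV and XVIII lie in or next to basement membranes. The remaining types bind to fibrils, form beaded filaments or short-chain networks, anchor the epithelium, or span the cell membrane. In the kidney, interstitial fibroblasts and pericytes are the known main source of fibrillar chains, while tubule cells, endothelium and podocytes make type IV chains.

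The 3 classes differed in how many members were expressed. All 8 basement membrane collagens were tested, against 7 of 11 fibrillar and 10 of 25 other collagens. Among the other collagens, 3 of 6 type VI chains, 3 of 9 fibril-associated chains, 2 of 3 short-chain collagens, Col7a1 of anchoring fibrils and Col26a1 passed, and 0 of 4 membrane-spanning collagens did. Of the 25, 19 were at 1 FPKM or more in all 4 control mice. The other 6 (Col4a6, Col5a1, Col5a3, Col7a1, Col8a1 and Col8a2) fell below 1 FPKM in at least 1 control mouse, so that their place among the tested genes depended on diseased mice. Closest to the limit on the inside was Col8a2, at 1 FPKM in 6 mice, and on the outside Col20a1, at 1 FPKM in 3 mice.

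The 19 untested collagens were all near the floor of the table. Col9a1 was listed at 0 in every mouse, and the highest value of any of them was 1.45 FPKM, for Col20a1 in CKD mouse 022301. They hold the cartilage fibril chains Col2a1, Col11a1 and Col11a2, with group means between 0.0240 and 0.588 FPKM, and Col10a1 of growth plate cartilage, which was listed at 0 in the 4 control mice. Col17a1, the hemidesmosome collagen of stratified epithelium, lay between 0.00597 and 0.0847 FPKM in control mice and between 0.620 and 1.13 FPKM in CKD mice. The rest were Col6a4, Col6a5, Col6a6, Col9a2, Col9a3, Col13a1, Col19a1, Col22a1, Col23a1, Col24a1, Col25a1 and Col28a1.

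The 44 genes lie on 15 chromosomes, and the starts and ends of 42 of them in the deposited table are those of the GENCODE M21 annotation of GRCm38. The type IV genes stand in head-to-head pairs. Col4a1 (chr8:11198423-11312826, minus strand) and Col4a2 (chr8:11312805-11449287, plus strand) overlap by 22 bases, Col4a4 and Col4a3 on chromosome 1 are 71 bases apart, and Col4a6 and Col4a5 on chromosome X are 1308 bases apart. Col3a1 (chr1:45311538-45349706) and Col5a2 (chr1:45374321-45503282) lie tail to tail, 24614 bases apart.

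Start regions are shown for fibrillar chains that rose strongly in CKD and for the type IV pair whose start sites face each other. RefSeq windows of GRCm38.p6, from 250 bases before to 50 bases after the start, were matched by symbol for 35 of the 44 collagens and for 19 of the 25 tested. For Col3a1, whose RefSeq and deposited starts are the same base, the 250 bases before the start are printed (chr1:45311288-45311537, plus strand), with a TATAAA motif in capitals. For Col1a2 the RefSeq start, at base 4505618 of chromosome 6, lies 804 bases inside the gene as deposited, which begins with another transcript. GENCODE M21 marks 127 of the 250 bases before that RefSeq start as UTR, and only the longest stretch outside them is printed (chr6:4505370-4505492, plus strand, 123 bases), with its 2 GGGCGG motifs in capitals. For Col4a1 and Col4a2 the stretch from one start site to the other is printed on each gene's own strand (chr8:11312805-11312826), with the first and last base in capitals, the first being the gene's own start and the last the start of its partner.
Col1a2: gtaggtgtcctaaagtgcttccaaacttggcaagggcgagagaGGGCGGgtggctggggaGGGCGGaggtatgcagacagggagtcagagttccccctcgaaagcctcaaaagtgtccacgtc
Col3a1: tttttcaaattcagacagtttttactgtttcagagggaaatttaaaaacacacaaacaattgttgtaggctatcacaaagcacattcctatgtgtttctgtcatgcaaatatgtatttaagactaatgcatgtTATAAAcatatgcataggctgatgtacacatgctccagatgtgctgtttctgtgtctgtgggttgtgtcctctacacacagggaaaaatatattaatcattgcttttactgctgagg
Col4a1: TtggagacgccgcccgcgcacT
Col4a2: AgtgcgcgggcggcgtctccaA

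Motifs were counted in the 300-base windows on both strands. CCAAT was present in 8 of 19 tested collagens (42.1%) and in 41.1% of the 27025 genes with a window. The GC box GGGCGG was present in 14 of 19 (73.7%) against 38.2% of all genes, TATAAA in 1 of 19 (5.26%) against 15.7%, and CAGACA, the letters of a Smad-binding element, in 6 of 19 (31.6%) against 23.6%. The only tested collagen with TATAAA was Col3a1. Over all 35 collagens with a window, tested or not, the shares were 37.1% for CCAAT, 62.9% for GGGCGG, 14.3% for TATAAA and 25.7% for CAGACA. These matches describe the letters of the windows and were not tied to expression.

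Depth in reads is unknown, because FPKM keep no read number, and no counting interval can be given. CKD mouse 110310 stood apart from its group in collagen level, with 1524 FPKM summed over all 44 genes against 783 to 840.3 in the other 3 CKD mice. Control mouse 042301 stood apart from its group for Col4a2, Col5a2 and Col18a1, and CKD+Fe mouse 042702 for Col18a1. Values without these 3 mice are given beside counts and beside the calls that changed. Most genes were higher in diseased mice on this scale. The median log2 fold change of FPKM + 1 was 0.50 in CKD against control over the 13148 genes tested. Rescaling the mice by the median of ratios took this median to 0.01. As deposited, 9805 of these estimates were positive and 3343 negative. The sum of all FPKM moved the other way, from a mean of 650800 for control mice to 540700 for CKD mice. Counts and the calls that changed are given on both scales. The collagen panel of 25 genes by mouse shows the 3 blocks of mice side by side.

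**Figure D1:**
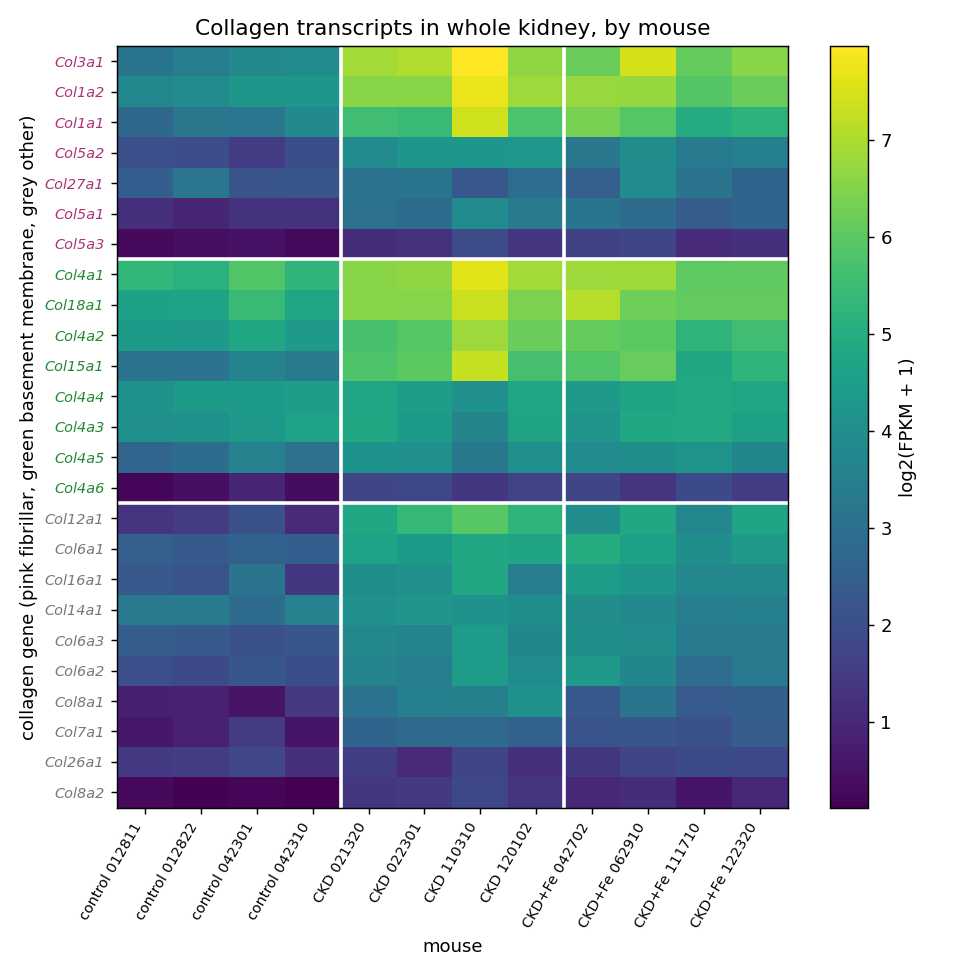
Log2(FPKM + 1) of the 25 tested collagens (vertical axis, by class, highest mean first) in each of the 12 mice (horizontal axis), with white lines between classes and groups. Most fibrillar and other collagens are dark in control mice and bright in CKD and CKD+Fe mice, while Col4a3 and Col4a4 keep a similar shade throughout.

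To see how the collagen genes changed with kidney disease, CKD mice were compared with control mice. Of the 25 tested collagens, 21 rose in CKD and 0 fell (limma on log2(FPKM + 1), Benjamini-Hochberg adjusted p under 0.05), where 54.6% of all genes tested rose and 13.3% fell. Their median log2 fold change was 1.84, against 0.50 over all genes. In 20 of the 25, the lowest CKD mouse was above the highest control mouse, a separation seen in 44.6% of all genes. After median-of-ratios rescaling 19 rose and 0 fell, with a median of 1.30, where 28.8% of all genes rose. Without mice 042301, 110310 and 042702 the number was 22. Of the 19 collagens at 1 FPKM or more in all control mice, 15 rose. No matched share of all genes stands beside this count or beside the 22.

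In absolute level the collagens went from 225 ± 33.5 FPKM summed over the 44 genes in control mice to 990.8 ± 356 FPKM in CKD mice (SD, n = 4). That is 0.0345% of all FPKM in control and 0.181% in CKD mice, a share that does not depend on the scaling between mice. The 4 control mice ran from 196 to 271 FPKM and the 4 CKD mice from 783 to 1524 FPKM. In bulk tissue, more cells of a type and more RNA per cell cannot be told apart.

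Fibrillar collagens showed the largest class median, 2.31, with 6 of 7 rising. Type I collagen, the main protein of fibrotic scar, is made of the chains of Col1a1 and Col1a2. Col1a1 (ENSMUSG00000001506, chr11:94936224-94953042) was at 5.86, 8.38, 8.15 and 13.3 FPKM in control mice and at 46.7, 41.9, 168 and 52.8 FPKM in CKD mice. The groups did not overlap, and CKD mouse 110310 lay far above the other 3. The log2 fold change was 2.78 (SE 0.41, adjusted p = 6.08e-05, limma), and 2.32 without mouse 110310. Col1a2 (ENSMUSG00000029661, chr6:4504814-4541544) was at 12.6, 14.0, 18.4 and 17.7 FPKM in control mice and at 94.6, 95.2, 212 and 113 FPKM in CKD mice, again without overlap. Its log2 fold change was 2.89 (SE 0.26, adjusted p = 1.24e-06, limma).

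Col3a1 (ENSMUSG00000026043), whose type III fibers accompany type I in distensible tissue, was at 8.07, 10.2, 12.9 and 14.2 FPKM in control mice and at 117, 131, 249.8 and 101 FPKM in CKD mice. The lowest CKD mouse was thus far above the highest control mouse. The log2 fold change was 3.55 (SE 0.31, adjusted p = 1.03e-06, limma), the largest of the fibrillar class, and Col3a1 went from second to first place among fibrillar chains by mean level (11.4 ± 2.76 to 149.8 ± 67.8 FPKM, SD, n = 4).

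The chains of type V, a minor collagen inside type I fibrils that limits their diameter, were lower in level and rose as well. Col5a2 (ENSMUSG00000026042) was at 3.09, 2.89, 1.76 and 2.99 FPKM in control and at 13.8, 18.1, 17.8 and 18.6 FPKM in CKD mice, without overlap (log2 fold change 2.31, SE 0.18, adjusted p = 4.26e-07, limma). Col5a1 had a log2 fold change of 2.14 and Col5a3 of 1.03, and both were below 1 FPKM in some or all control mice. With quantile normalization Col5a3 did not pass (0.29, adjusted p = 0.292, limma). Col27a1 did not pass the test (0.35, adjusted p = 0.342, limma) and was at -0.14 on the log2 scale after rescaling.

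**Figure D2:**
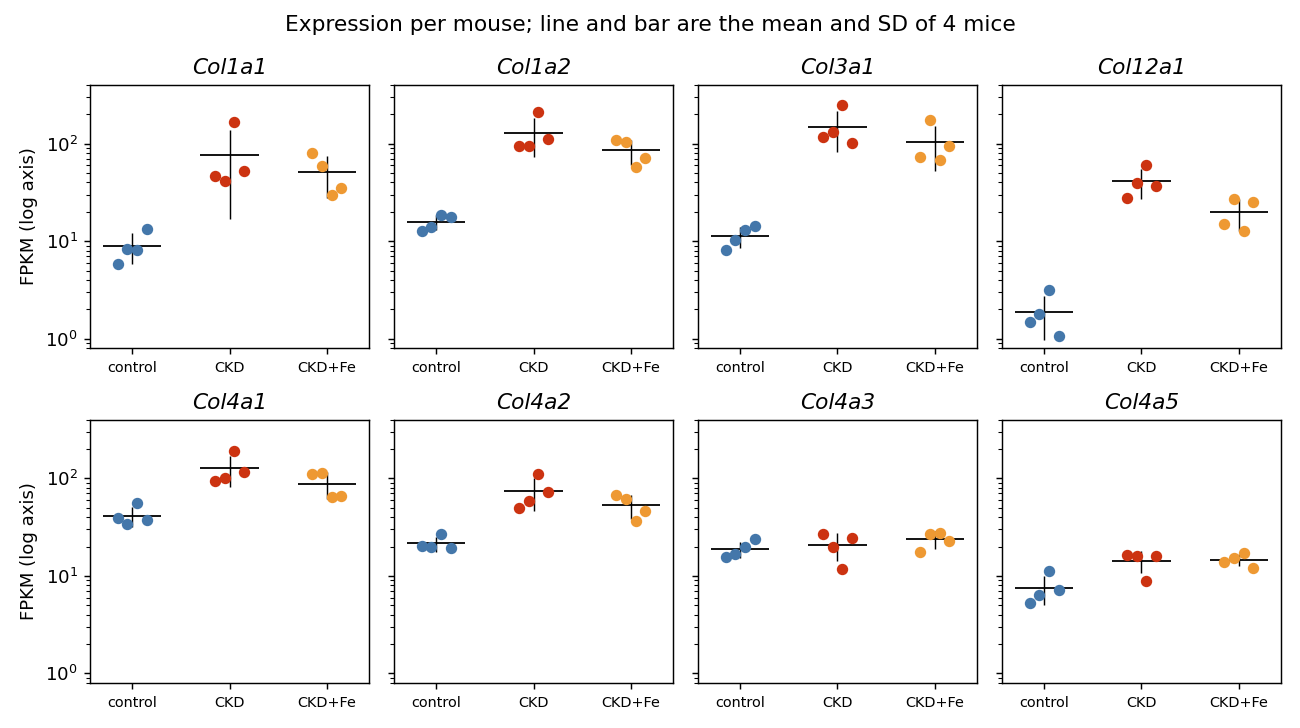
FPKM (log axis) of 8 collagen genes in each mouse of the control, CKD and CKD+Fe groups, with the mean (line) and SD (bar) of 4 mice. Col1a1, Col1a2, Col3a1 and Col12a1 separate both diseased groups from control, Col4a1 and Col4a2 do so with a smaller distance, and Col4a3 overlaps in all groups.

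Basement membrane collagens had the smallest class median, 1.36, with 6 of 8 rising, and the class was split. Taken alone, the 6 type IV genes had a median of 1.005 with 4 rising. Col4a1 (ENSMUSG00000031502), which with Col4a2 encodes the type IV network present in nearly all basement membranes, was the most abundant collagen in control kidney. It was at 38.9, 33.8, 55.9 and 37.4 FPKM in control mice and at 94.9, 101, 192 and 118 FPKM in CKD mice, without overlap. The log2 fold change was 1.55 (SE 0.26, adjusted p = 0.000141, limma). Col4a2 (ENSMUSG00000031503) was at 20.1, 19.6, 27.0 and 19.2 FPKM in control mice and at 50.2, 59.3, 112 and 72.0 FPKM in CKD mice. The log2 fold change of 1.67 (SE 0.24, adjusted p = 5.13e-05, limma) was close to that of its head-to-head partner.

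Col4a3, Col4a4 and Col4a5 encode the chains of the mature glomerular basement membrane, which podocytes make and which are altered in Alport syndrome. Col4a3 (ENSMUSG00000079465) was at 15.8, 16.7, 19.7 and 23.7 FPKM in control mice and at 27.1, 19.9, 11.9 and 24.8 FPKM in CKD mice, so that the groups overlapped. Its log2 fold change was 0.09 (SE 0.23, 95% interval -0.41 to 0.59, adjusted p = 0.737, limma). Col4a4 (ENSMUSG00000067158) was at 16.3, 20.1, 20.1 and 21.8 FPKM in control mice and at 25.4, 21.3, 15.995 and 25.8 FPKM in CKD mice, and its log2 fold change was 0.15 (SE 0.17, 95% interval -0.21 to 0.51, adjusted p = 0.431, limma). For this pair the lowest CKD mouse was 110310, the mouse with the most type I collagen. After rescaling the log2 fold changes were -0.46 for Col4a3 and -0.40 for Col4a4, neither past the threshold (adjusted p = 0.102 and 0.0566, limma), so their direction depended on the scaling. With array weights, which count outlying mice less, both passed as higher (0.42 and 0.37, adjusted p = 0.0289 and 0.0203, limma), and without mice 042301, 110310 and 042702 Col4a4 did (0.31, adjusted p = 0.0475, limma).

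Col4a5 (ENSMUSG00000031274), which also pairs with Col4a6 in the Bowman capsule and collecting duct, was at 5.33, 6.44, 11.2 and 7.25 FPKM in control mice and at 16.5, 15.9, 8.85 and 15.8 FPKM in CKD mice. Here too 110310 was the low CKD mouse, and it alone overlapped with control mice. Col4a5 passed the test as deposited (log2 fold change 0.84, SE 0.22, adjusted p = 0.00426, limma) and did not after rescaling (0.32, adjusted p = 0.209, limma). Col4a6 (ENSMUSG00000031273) was at 0.187, 0.343, 0.950 and 0.291 FPKM in control and at 2.35, 2.52, 1.61 and 2.34 FPKM in CKD mice. Its log2 fold change was 1.17 (SE 0.19, adjusted p = 0.000104, limma) at the lowest level of the type IV genes, and with quantile normalization it did not pass (0.40, adjusted p = 0.0521, limma).

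The 2 multiplexins, collagens with interrupted helices that carry antiangiogenic fragments at their ends, rose more than the type IV genes. Col15a1 (ENSMUSG00000028339) was at 7.69, 7.67, 11.4 and 8.96 FPKM in control mice and at 55.1, 62.4, 153 and 49.7 FPKM in CKD mice. The groups did not overlap, and the log2 fold change was 2.89 (SE 0.34, adjusted p = 9.09e-06, limma), level with that of Col1a2. Col18a1 (ENSMUSG00000001435), the gene of endostatin, was at 23.6, 24.2, 41.5 and 25.4 FPKM in control mice and at 94.4, 91.4, 159.7 and 84.1 FPKM in CKD mice. This was a log2 fold change of 1.86 (SE 0.26, adjusted p = 4.18e-05, limma). Col18a1 shares 8825 bases with Slc19a1 on the opposite strand, and the use of strand in counting is not given in the sources used here, so reads of that stretch may be split between them.

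The other collagens had a median log2 fold change of 1.85, with 9 of 10 rising. Col12a1 (ENSMUSG00000032332, chr9:79598991-79718831), a large collagen that decorates type I fibrils, had the largest rise of all 25. It was at 1.48, 1.81, 3.14 and 1.07 FPKM in control mice and at 27.5, 39.4, 60.4 and 36.7 FPKM in CKD mice, so that the groups were far apart. Mean FPKM was 21.9 times higher in CKD than in control mice, and the log2 fold change was 3.86 (SE 0.29, adjusted p = 2.54e-07, limma). Of the other fibril-associated chains, Col16a1 was at 3.99, 3.45, 7.77 and 1.58 FPKM in control and at 15.5, 16.1, 26.8 and 10.2 FPKM in CKD mice (log2 fold change 1.86, SE 0.34, adjusted p = 0.0003, limma). Col14a1, the most abundant of the class in control mice, was at 9.03, 8.999, 6.36 and 11.03 FPKM there and at 16.1, 17.3, 16.8 and 15.2 FPKM in CKD mice. Its rise was the smallest of the class that passed (0.84, SE 0.17, adjusted p = 0.000577, limma) and did not pass after rescaling (0.30, adjusted p = 0.137, limma).

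All 3 tested type VI chains rose. Type VI collagen forms beaded filaments around cells, and its classical chains are those of Col6a1, Col6a2 and Col6a3. Col6a1 was at 4.73, 4.01, 4.87 and 4.48 FPKM in control mice and at 24.6, 20.0, 27.1 and 25.3 FPKM in CKD mice, a narrow spread on both sides (log2 fold change 2.19, SE 0.18, adjusted p = 5.57e-07, limma). Col6a2 was at 3.13, 2.59, 3.66 and 2.96 FPKM in control and at 11.3, 10.003, 20.6 and 14.4 FPKM in CKD mice, with a log2 fold change of 1.84. Col6a3 was at 4.37, 3.96, 3.17 and 3.69 FPKM in control and at 12.5, 11.4, 21.2 and 12.1 FPKM in CKD mice, with a log2 fold change of 1.64. None of these groups overlapped.

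Among the remaining members, Col8a1 of short-chain networks had a log2 fold change of 2.66, Col8a2 of 1.29 and Col7a1 of anchoring fibrils of 1.86, all from less than 1 FPKM on average in control mice. Col26a1 was at 1.75, 1.91, 2.46 and 1.24 FPKM in control and at 1.996, 1.05, 2.34 and 1.31 FPKM in CKD mice, with full overlap. It was the only tested collagen with a negative estimate (-0.10, 95% interval -0.50 to 0.31, adjusted p = 0.664, limma). With quantile normalization it fell past the threshold (-0.90, adjusted p = 0.00209, limma).

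Because the classes rose by different amounts, the makeup of collagen RNA changed. Fibrillar chains were 20.4% ± 3.01 of all collagen FPKM in control mice and 38.6% ± 3.60 in CKD mice (SD, n = 4), and the groups did not overlap (17.3% to 23.7% and 36.2% to 43.9%). Basement membrane chains were 65.1% ± 2.98 in control and 45.5% ± 1.75 in CKD mice (SD, n = 4), and type IV alone went from 48.6% to 26.9%. Other collagens stayed between 13.1% and 17.3% in every mouse. Control kidney thus held more basement membrane than fibrillar collagen RNA in each mouse, while CKD mouse 110310 was the only CKD mouse in which the fibrillar share (43.9%) was above the basement membrane share (43.0%).

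**Figure D3:**
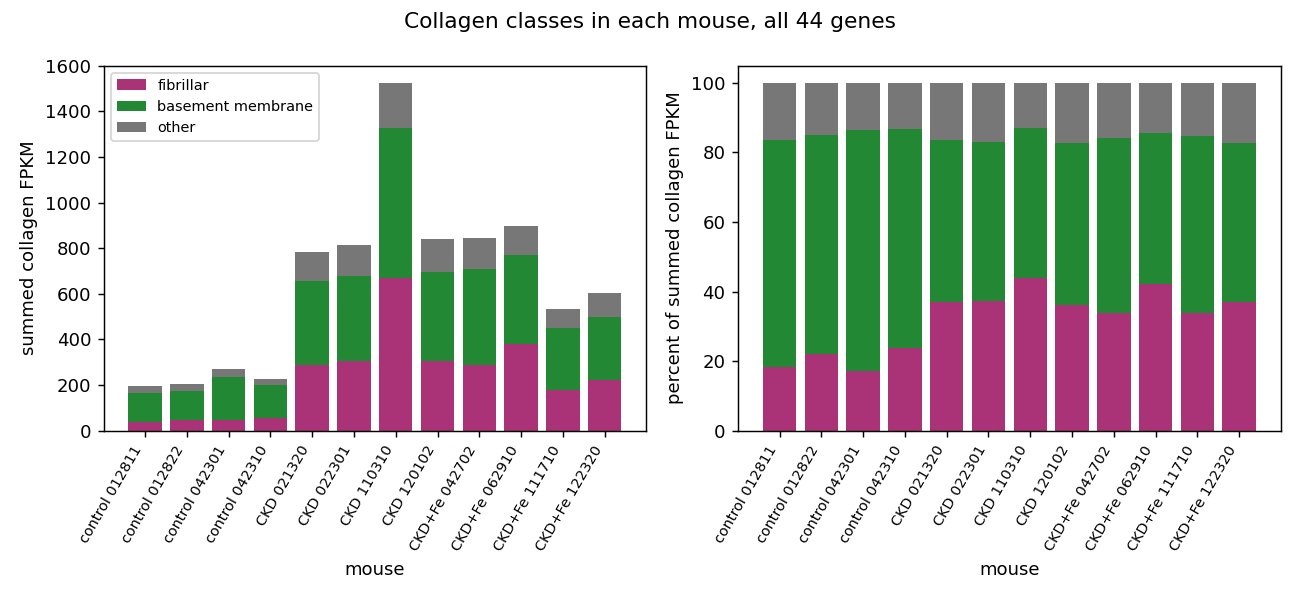
Summed FPKM of all 44 collagens (left) and the percent of that sum (right) in fibrillar, basement membrane and other collagens, 1 stacked bar per mouse. The 4 control mice sum to 196 to 271 FPKM with 63.0% to 69.3% basement membrane chains, against 43.0% to 46.7% in CKD mice.

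Ratios between chains do not depend on the scaling between mice, and 8 pairs were compared in 3 comparisons (24 exact two-sided permutation tests, smallest p possible 0.0286, Benjamini-Hochberg over the 24). No ratio passed after adjustment, where the smallest adjusted exact p was 0.172. A ratio without overlap could pass only if many of the 24 tests also reached the smallest p possible. The adjusted p therefore cannot decide on any single ratio. The ratio of Col4a1 to Col1a1 was 6.63, 4.04, 6.85 and 2.81 in control mice and 2.03, 2.40, 1.15 and 2.23 in CKD mice, lower in 4 of 4 CKD mice than in any control mouse (exact permutation p = 0.0286, adjusted p = 0.172). The ratio of Col4a3 to Col4a1 was 0.406, 0.495, 0.352 and 0.634 in control mice and 0.286, 0.198, 0.0619 and 0.210 in CKD mice, also without overlap (exact permutation p = 0.0286, adjusted p = 0.172). Relative to Col4a1, Col4a3 was thus lower in each CKD mouse than in any control mouse, a difference that did not pass after adjustment. The cells that made these transcripts were not tested.

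The other ratios overlapped between control and CKD mice. Col1a2 to Col1a1 had a geometric mean of 1.82 in control and 1.88 in CKD mice, with a difference of 0.05 on the log2 scale (exact permutation p = 0.914, adjusted p = 0.914). Col4a2 to Col4a1 was between 0.484 and 0.579 in control and between 0.529 and 0.612 in CKD mice, a log2 difference of 0.14 (exact permutation p = 0.0571, adjusted p = 0.196). Col6a3 to Col6a1 went from a geometric mean of 0.836 to 0.574 and Col3a1 to Col1a1 from 1.30 to 2.18 (exact permutation p = 0.0571 and adjusted p = 0.196 for each). Col18a1 to Col4a1 went from 0.684 to 0.856 and Col5a2 to Col1a1 from 0.306 to 0.263, with exact permutation p of 0.0857 and 0.743 (adjusted p = 0.229 and 0.894).

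**Figure D4:**
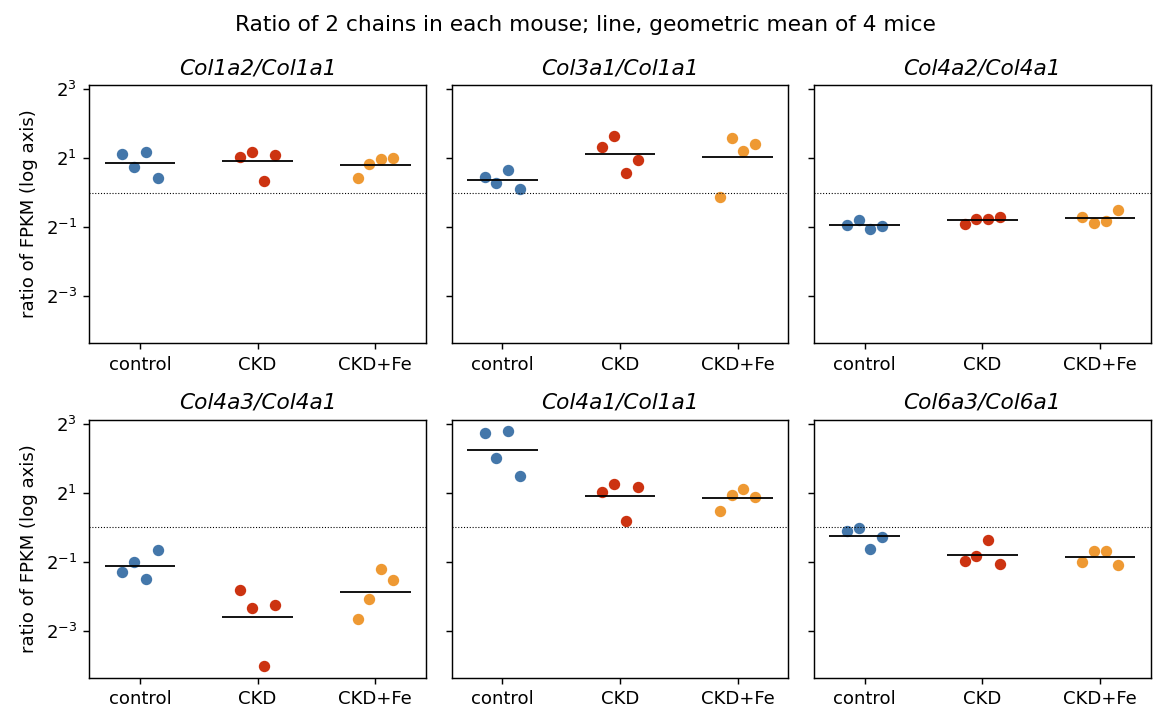
Ratio of FPKM of collagen chains (log axis, dotted line at equal levels) in each mouse of the 3 groups, with the geometric mean of 4 mice as a line. Col4a1/Col1a1 and Col4a3/Col4a1 are lower in every CKD mouse than in every control mouse, while Col1a2/Col1a1 stays near 1.8 in all groups.

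Cell markers moved alongside the collagens. Counts of markers that rose stand here against the 54.6% of all genes that rose on the same scale. Of the 4 fibroblast and pericyte markers (Pdgfra, Pdgfrb, Dcn and Lum), 4 rose in CKD, and their summed level was 37.5 to 42.8 FPKM in control mice and 141 to 205 FPKM in CKD mice. Of the 4 smooth muscle and myofibroblast markers 2 rose (48.7 to 96.7 and 175 to 275 FPKM), Acta2 and Tagln. After rescaling Acta2 did not pass (0.58, adjusted p = 0.0588, limma). Myh11 and Cnn1 had negative estimates (-0.31 and -0.25) that did not pass as deposited. Myh11 fell past the threshold after rescaling (-0.74, adjusted p = 0.0263, limma). All 4 macrophage markers rose (48.3 to 83.8 and 342 to 748 FPKM). Of the 6 tubule markers 3 fell (3814 to 4240 and 2805 to 3916 FPKM), where 13.3% of all genes fell. These were Slc34a1, Lrp2 and Aqp2, while Umod, Slc12a1 and Slc12a3 had positive estimates (0.45, 0.66 and 0.60) that did not pass. Of the 4 podocyte markers 1 rose (74.5 to 92.5 and 132 to 175 FPKM). In CKD mouse 110310, the mouse with the most collagen, the fibroblast and pericyte sum was the lowest of the CKD group (141 FPKM). Its markers were split, with Dcn (90.5 FPKM) and Pdgfra (13.4 FPKM) the lowest of the group and Pdgfrb (31.0 FPKM) the highest. Lum (5.97 FPKM) lay within the range of the other CKD mice. The smooth muscle and myofibroblast sum of this mouse was the highest of the group (275 FPKM). One of 6 urothelium markers rose, with sums of 1.32 to 23.6 FPKM in control and 19.9 to 53.5 FPKM in CKD mice. That marker was Krt20, with means of 0.164 FPKM in control and 31.6 FPKM in CKD mice. Means of Upk1b (1.59 and 1.30 FPKM), Upk2 (2.95 and 0.860), Upk3a (3.79 and 2.25) and Krt5 (1.33 and 1.29) were lower in CKD mice. The mean of Upk1a was higher (2.57 and 2.99 FPKM), and none of these others passed the test. Fat, skeletal muscle and adrenal markers were untested, with Myh4 and Cyp11b2 listed at 0 in all mice, and the fat sum stood at 115 FPKM in CKD+Fe mouse 122320, 14.2 in control mouse 012822 and 12.6 in CKD+Fe mouse 111710. The part of any of these cell types in the collagen results was not tested.

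To see whether iron changed collagen expression in diseased kidney, CKD+Fe mice were compared with CKD mice. None of the 25 collagens passed the test in either direction (limma, adjusted p under 0.05), where 0.00761% of all genes, which is 1 gene, passed as higher and 0% as lower. At an unadjusted p under 0.05, 7 collagens were lower and 0 higher (limma), where 2.73% of all genes were lower and 3.28% higher. With array weights 0 collagens passed either way, where 79 of the 13148 genes tested passed as higher and 56 as lower. Estimates were negative for 19 of the 25, with a median of -0.40 on the log2 scale against -0.0005 over all genes. In 4 collagens (Col7a1, Col8a2, Col12a1 and Col14a1) every CKD+Fe mouse was below every CKD mouse, a separation seen in 1.09% of all genes, and in 0 was every CKD+Fe mouse above, as in 1.35% of all genes. Col5a1, Col7a1, Col8a1 and Col8a2, which are among the 7, were below 1 FPKM in at least 1 control mouse. Their place among the tested genes depended on diseased mice, the same mice compared here. Col7a1 and Col8a2 are also among the 4, so neither count is free of this choice of genes.

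Col12a1 had the most negative estimate. It was at 15.1, 26.9, 12.6 and 25.2 FPKM in CKD+Fe mice, all below the lowest CKD mouse at 27.5 FPKM. The log2 fold change was -1.01 (SE 0.29, 95% interval -1.63 to -0.40, adjusted p = 0.446, limma), and -0.81 without CKD mouse 110310. Col8a1 followed with -0.98 (SE 0.25, adjusted p = 0.4, limma), with 11.2 ± 3.82 FPKM in mice without iron and 5.16 ± 1.89 FPKM in those with it (SD, n = 4). Col5a2 was at 8.65, 14.6, 8.92 and 10.4 FPKM in CKD+Fe mice, where 1 mouse overlapped with the CKD range (-0.65, SE 0.18, adjusted p = 0.446, limma). Col14a1 was at 15.04, 13.5, 10.2 and 10.5 FPKM, just under the CKD range (-0.40, SE 0.17, adjusted p = 0.786, limma). The other collagens at an unadjusted p under 0.05 were Col5a1 (-0.52), Col7a1 (-0.51) and Col8a2 (-0.57).

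The main scar collagens had wide intervals. Col1a1 was at 80.5, 59.0, 29.6 and 35.3 FPKM in CKD+Fe mice, overlapping with the CKD range. Its log2 fold change was -0.44 (95% interval -1.33 to 0.44, adjusted p = 0.964, limma), and 0.01 without CKD mouse 110310. Col1a2 was at 108, 104, 57.9 and 70.7 FPKM (-0.55, 95% interval -1.11 to 0.01, adjusted p = 0.835, limma) and Col3a1 at 73.0, 177, 68.5 and 93.8 FPKM (-0.55, 95% interval -1.23 to 0.12, adjusted p = 0.905, limma). Without mouse 110310 each of these last 2 was -0.28. Without mice 042301, 110310 and 042702, Col1a1 was -0.24, Col1a2 -0.41 and Col3a1 -0.15.

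**Figure D5:**
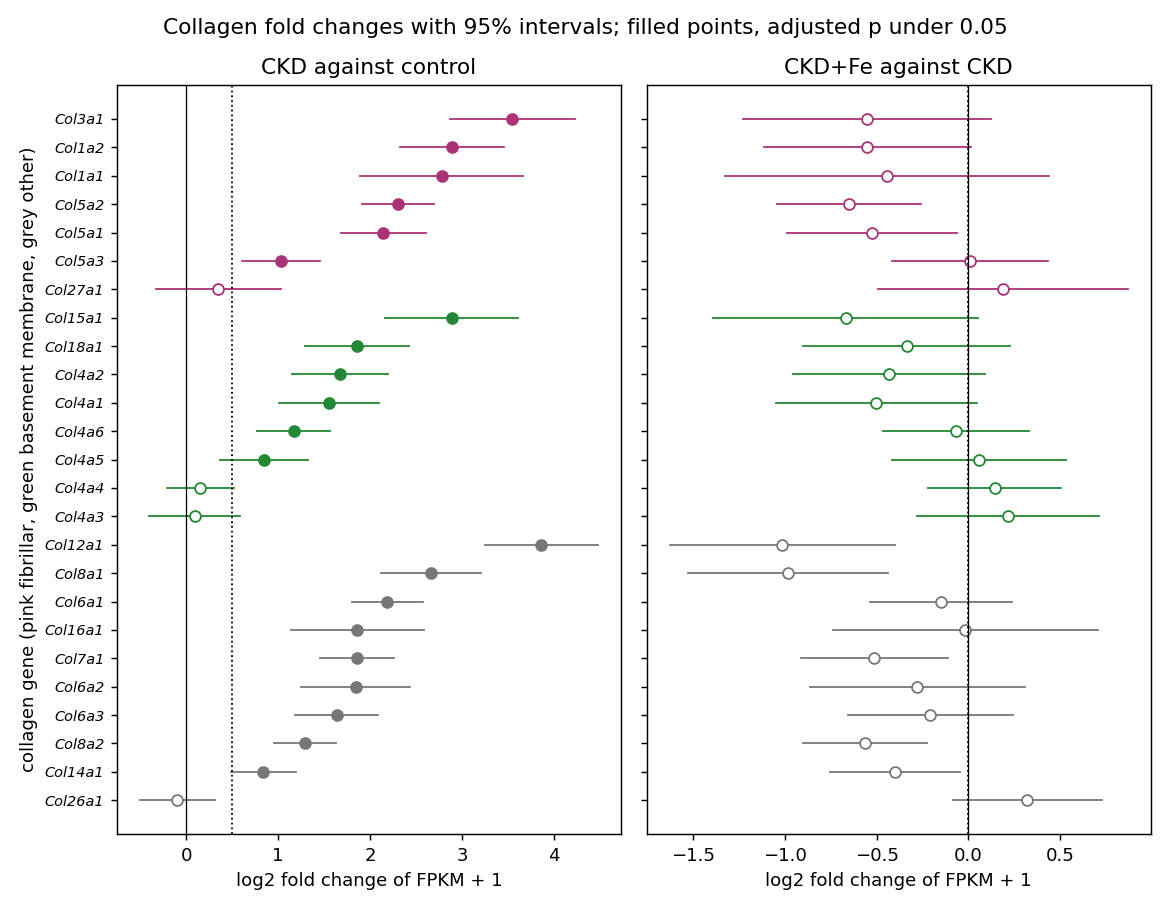
Log2 fold change of FPKM + 1 with its 95% interval for the 25 tested collagens (vertical axis, by class), CKD against control on the left and CKD+Fe against CKD on the right, with filled points for an adjusted p under 0.05, a solid line at 0 and a dotted line at the median of all genes. On the left 21 points are filled and lie right of 0, and on the right none is filled and 19 lie left of 0.

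By class, the medians in CKD+Fe against CKD were -0.52 for fibrillar, -0.20 for basement membrane and -0.34 for other collagens, and -0.003 for type IV alone. Among type IV genes, Col4a1 was at 111, 114, 64.0 and 65.5 FPKM in CKD+Fe mice and Col4a2 at 68.4, 62.1, 36.5 and 45.9 FPKM (-0.50 and -0.43 on the log2 scale). Both split into a higher pair, 042702 and 062910, and a lower pair, 111710 and 122320. Col4a3 was at 17.5, 27.2, 27.9 and 22.7 FPKM, Col4a4 at 18.97, 25.1, 28.1 and 25.3 FPKM, Col4a5 at 13.8, 15.3, 17.1 and 12.2 FPKM and Col4a6 at 2.39, 1.48, 2.69 and 1.76 FPKM. Their log2 fold changes lay between -0.07 and 0.22, with adjusted p of at least 0.977 (limma).

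Col15a1 was at 56.4, 69.7, 27.1 and 37.2 FPKM in CKD+Fe mice (-0.67, SE 0.34, adjusted p = 0.86, limma) and Col18a1 at 136, 74.9, 67.0 and 66.3 FPKM (-0.34, SE 0.26, adjusted p = 0.958, limma), both overlapping with the CKD range. The type VI chains were at 30.8, 23.4, 15.2 and 19.8 FPKM for Col6a1, 19.6, 12.1, 6.57 and 9.22 FPKM for Col6a2 and 15.3, 14.6, 9.45 and 9.29 FPKM for Col6a3. In each of these chains mouse 042702 was the highest of its group. Col16a1 was at 21.7, 18.1, 12.5 and 13.3 FPKM (-0.02 on the log2 scale). Col26a1 had the largest positive estimate (0.32, SE 0.19, adjusted p = 0.905, limma), at 1.62, 2.38, 2.64 and 2.61 FPKM.

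The summed collagen level was 719 ± 179 FPKM in CKD+Fe mice (SD, n = 4), or 0.129% of all FPKM, and ran from 531 to 896 FPKM. The 2 mice with the lowest sums, 111710 and 122320, lay below all CKD mice and the other pair within their range. Class shares were close to those of CKD mice, with 36.7% ± 3.98 fibrillar and 47.6% ± 3.58 basement membrane chains (SD, n = 4). None of the 8 ratios separated CKD+Fe from CKD mice, with exact permutation p from 0.286 to 0.857. The ratio of Col4a3 to Col4a1 was 0.158, 0.239, 0.435 and 0.347 in CKD+Fe mice, with a geometric mean of 0.275 against 0.165 in CKD and 0.460 in control mice (exact permutation p = 0.286 against CKD, adjusted p = 0.528). Fibroblast and pericyte markers summed to 124 to 253 FPKM in CKD+Fe mice, a range that held that of CKD mice, and 0 of the 4 passed the test between these groups. The macrophage sum was 393 to 848 FPKM and the podocyte sum 76.2 to 312 FPKM in CKD+Fe mice, and 0 genes of these lists passed between the groups either.

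CKD+Fe mice were then compared with control mice. This comparison uses the CKD+Fe mice of the previous comparison and the control mice of the first, and is not independent of them. Of the 25 collagens, 21 were higher and 0 lower (limma, adjusted p under 0.05), where 54.4% of all genes were higher and 11.0% lower. Among the 19 collagens at 1 FPKM or more in all control mice, 15 were higher, a count without a matched share of all genes. In 20 of 25 the groups did not overlap, as in 50.4% of all genes. The median log2 fold change was 1.43, and by class 1.65 for fibrillar, 1.08 for basement membrane and 1.497 for other collagens. Col3a1 (2.99) and Col12a1 (2.85) had the largest values. After median-of-ratios rescaling 18 were higher, where 27.7% of all genes were. The 3 that no longer passed were Col4a1 (0.49, adjusted p = 0.133, limma), Col4a5 (0.39, adjusted p = 0.135, limma) and Col14a1, which was at 0.44 (adjusted p = 0.0312, limma) as deposited and at -0.08 rescaled. With quantile normalization 16 were higher, without Col4a5, Col4a6, Col5a3, Col8a2 and Col14a1, and Col26a1 was lower (-0.59, adjusted p = 0.0285, limma). Over all 13148 genes tested, 2605 were higher and 2967 lower with that normalization. Without mice 042301, 110310 and 042702, 23 were higher, with Col14a1 lost (0.21, adjusted p = 0.179, limma) and with Col4a3 (0.46, adjusted p = 0.0279), Col4a4 (0.42, adjusted p = 0.0123) and Col26a1 (0.44, adjusted p = 0.0348, limma) gained. No share of all genes without these mice stands beside that count. The ratios of Col4a1 to Col1a1 and of Col6a3 to Col6a1 were lower in 4 of 4 CKD+Fe mice than in any control mouse (log2 differences -1.40 and -0.61, exact permutation p = 0.0286 and adjusted p = 0.172 for each).

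Trimers need enzymes and chaperones before and after secretion, so 35 genes of collagen production were followed as well. Of the 28 tested, 18 rose and 4 fell in CKD (limma, adjusted p under 0.05), with a median log2 fold change of 0.80, where 54.6% of all genes rose and 13.3% fell with a median of 0.50. After median-of-ratios rescaling 12 rose and 6 fell, where 28.8% of all genes rose and 29.3% fell. Lox, the lysyl oxidase that crosslinks fibers outside the cell, was at 1.23, 0.678, 1.47 and 0.887 FPKM in control mice and at 14.8, 19.6, 18.1 and 21.9 FPKM in CKD mice. The difference was 3.25 on the log2 scale (SE 0.18, adjusted p = 3.53e-08, limma). Bmp1, which cleaves the C-terminal propeptide of fibrillar procollagen, was at 1.86, 2.01, 2.35 and 2.06 FPKM in control and at 16.3, 23.4, 27.2 and 21.8 FPKM in CKD mice (2.90, SE 0.17, adjusted p = 3.53e-08, limma). Neither gene overlapped between groups. Among the 28, Adamts2 and Loxl3 were below 1 FPKM in every control mouse, and Lox, Mia2 and Mia3 in at least 1. Their place among the tested genes depended on diseased mice, so the counts are not free of this choice of genes.

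Genes of the steps inside the cell ran from clear rises, such as Fkbp10 of folding (2.20) and the galactosyltransferase Colgalt1 (1.92), to falls. Serpinh1, the collagen chaperone of the endoplasmic reticulum, was at 53.4, 47.0, 71.1 and 48.8 FPKM in control and at 114, 122, 229 and 78.1 FPKM in CKD mice (1.19, SE 0.27, adjusted p = 0.00168, limma), and did not pass after rescaling (0.62, adjusted p = 0.0706, limma). Plod2, a lysyl hydroxylase, had a log2 fold change of 0.57 as deposited (adjusted p = 0.0222, limma) and 0.02 after rescaling. The prolyl 4-hydroxylase subunits P4ha1 and P4hb fell by 0.51 and 0.42 on the log2 scale. P4ha1 went from 24.4 ± 3.38 to 16.9 ± 3.31 FPKM and P4hb from 347 ± 20.8 to 259 ± 20.2 FPKM (SD, n = 4). Another subunit, P4ha2, rose from 13.6 ± 1.34 to 18.6 ± 3.08 FPKM (SD, n = 4, log2 fold change 0.41, adjusted p = 0.0177, limma). P4ha2 did not pass after rescaling (-0.13, adjusted p = 0.402, limma). Pepd, which splits dipeptides left from collagen breakdown, was at 197, 218, 205 and 195 FPKM in control and at 71.8, 75.8, 105 and 67.1 FPKM in CKD mice and fell by 1.36 on the log2 scale (SE 0.15, adjusted p = 5.86e-06, limma). Tmem38b was the other gene that fell, by 0.37, and it did not pass without CKD mouse 110310 (adjusted p = 0.0795, limma). With quantile normalization P4hb was at -0.04. With iron, 0 of the 28 passed in either direction. With array weights 1 passed as lower, where 79 of the 13148 genes tested passed as higher and 56 as lower. Nearest to the threshold were Loxl2, a lysyl oxidase homolog (-0.59, adjusted p = 0.441, limma), and Adamts2, which cleaves the N-terminal propeptide (-0.55, adjusted p = 0.641, limma).

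Of 10 collagen receptor genes 8 were tested, and 8 rose in CKD (7 after rescaling), where 54.6% of all genes rose as deposited and 28.8% after rescaling. With iron 0 of the 8 passed. Itga2 and Itga10 were below 1 FPKM in every control mouse, and Lair1 and Ddr2 in at least 1. Their place among the tested genes depended on diseased mice, so neither count is free of this choice of genes. Lair1, an inhibitory collagen receptor of leukocytes, rose from 1.26 ± 0.579 to 13.0 ± 4.32 FPKM (SD, n = 4, log2 fold change 2.61, adjusted p = 1.36e-06, limma). Mrc2, an uptake receptor for collagen fragments, rose from 4.09 ± 0.344 to 26.8 ± 4.52 FPKM (SD, n = 4, log2 fold change 2.44). The discoidin domain receptors, kinases that bind fibrillar collagen, differed in level and in size of change, with Ddr2 at 1.20 ± 0.234 and 9.76 ± 3.03 FPKM (log2 fold change 2.25) and Ddr1 at 38.7 ± 1.93 and 74.9 ± 17.0 FPKM (0.91) in control and CKD mice (SD, n = 4). Ddr1 did not pass after rescaling (0.34, adjusted p = 0.157, limma).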

How the data were processed

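Whole kidney RNA of 12 mice was sequenced as stranded mRNA libraries with single-end reads on a HiSeq4000. The authors deposited FPKM values for protein-coding genes, and the submitters' processing notes name bcl2fastq 2.19, STAR 2.5.2, Cufflinks 2.1.1 and GRCm38. The deposited table gave 30 failed estimates in 17 genes, treated as missing, and 0 of them were collagens. Because FPKM are not counts, the count test of the study was not run.

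A linear model of log2(FPKM + 1) was fitted over all 12 mice (R 4.3.3, limma 3.58.1, eBayes with a trend in the variance) to the 13148 genes that reached 1 FPKM in 4 mice or more. Two-sided p values were adjusted over these genes by Benjamini-Hochberg, with a threshold of 0.05. The fit was tested on simulated data. Ratios used an exact permutation test over all 70 arrangements. Fold changes on this scale understate changes of low genes. Members, classes and lists (production, receptor and cell marker genes, from general knowledge) were chosen with earlier results of these data known. Genes given per mouse were the 4 highest by mean FPKM in the fibrillar and basement membrane classes and the 6 highest of the others, all type IV genes, and the largest rise and fall in the first 2 comparisons, and, of the production and receptor lists, the 3 largest rises and falls, the 2 smallest p with iron and a fixed set. Tmem38b, Fkbp10, Colgalt1, Mrc2, P4ha2, Loxl3, Mia2, Mia3, Itga2, Itga10 and collagens outside this rule were named after their values were seen. The labels name no batch. Alternatives were another pseudocount, other filters, other scalings, the 2 groups compared alone, array weights, a threshold of 0.5 and mice left out.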

Additional observations from a re-analysis of the deposited data

Results flagged for a closer look

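In each group of 4 mice, a mouse was singled out where its gap to the nearest other mouse, divided by the range of the group, was above Dixon's 95% limit for groups of 4. Chance alone gives this in about 1 in 20 groups, and 12 of the 99 groups examined showed it. CKD mouse 110310 gave 7 of the 12. It was high for Col1a1 (168 FPKM), Col1a2 (212 FPKM), Col5a3 (2.84 FPKM), Col6a3 (21.2 FPKM), Col15a1 (153 FPKM) and Col18a1 (160.0 FPKM), and low for Col4a5 (8.85 FPKM). Control mouse 042301 was high for Col4a2 (27.0 FPKM) and Col18a1 (41.5 FPKM) and low for Col5a2 (1.76 FPKM). CKD mouse 021320 was low for Col5a2 (13.8 FPKM), and CKD+Fe mouse 042702 was high for Col18a1 (136 FPKM).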

How the results depend on the processing

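The 6 counts of collagens past the threshold stayed within 1.5 times of the reported value except as follows. The number lower was 1 in CKD against control and 1 in CKD+Fe against control without a filter (Col19a1, mean 0.108 FPKM in control mice) and with quantile normalization (Col26a1), and 4 in CKD+Fe against CKD at a threshold of 0.5. Leaving out 1 mouse at a time gave 21 to 21 higher in CKD, 20 to 21 higher in CKD+Fe against control and 0 to 0 in the other counts. Class medians fell on the log2 scale with median-of-ratios rescaling, to 0.95 (basement membrane), 1.83 (fibrillar) and 1.37 (other) in CKD against control and to 0.59, 1.24 and 1.06 in CKD+Fe against control. Type IV alone had a median of 1.005 in CKD against control as deposited and 0.62 after rescaling.

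Some directions turned. With rescaling and with quantile normalization, in CKD against control, Col4a3 was -0.46 and -0.27 and Col4a4 -0.40 and -0.20, and in CKD+Fe against control Col4a3 was -0.23 and -0.066, Col4a4 -0.25 and -0.063, Col14a1 -0.080 and -0.15 and Col26a1 -0.15 and -0.59. In CKD+Fe against CKD, Col16a1 was 0.036 with array weights and 0.076 without mice 042301, 110310 and 042702, and Col4a5 -0.075 and -0.12. Leaving out 1 mouse at a time, log2 fold changes in CKD+Fe against CKD ran from -0.69 to 0.011 (Col1a1, positive without CKD mouse 110310), -0.31 to 0.0097 (Col6a1), -0.22 to 0.21 (Col16a1), -0.017 to 0.36 (Col4a3), -0.14 to 0.14 (Col4a5) and -0.16 to 0.033 (Col4a6), and in CKD against control from -0.21 to 0.022 (Col26a1) and -0.049 to 0.33 (Col4a3). Col27a1 was -0.14 with rescaling and -0.40 with quantile normalization in CKD against control, -0.18 with quantile normalization in CKD+Fe against control (0.54 as deposited), and -0.099 to 0.37 in CKD+Fe against CKD with 1 mouse left out. The cause of these turns was not tested.

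Log2 differences of ratios with 1 mouse left out ran, in CKD against control, from -0.10 to 0.24 (Col1a2/Col1a1), 0.57 to 0.93 (Col3a1/Col1a1), -0.46 to 0.22 (Col5a2/Col1a1), -1.75 to -1.01 (Col4a3/Col4a1), -1.60 to -1.11 (Col4a1/Col1a1) and 0.25 to 0.41 (Col18a1/Col4a1). In CKD+Fe against CKD they ran from -0.30 to 0.021 (Col1a2/Col1a1), -0.30 to 0.28 (Col3a1/Col1a1), -0.69 to 0.093 (Col5a2/Col1a1), -0.0029 to 0.12 (Col4a2/Col4a1), -0.29 to 0.074 (Col4a1/Col1a1) and -0.15 to 0.083 (Col6a3/Col6a1). In CKD+Fe against control they ran from -0.21 to 0.068 (Col1a2/Col1a1), 0.45 to 1.02 (Col3a1/Col1a1), -0.97 to -0.48 (Col4a3/Col4a1), -1.65 to -1.22 (Col4a1/Col1a1), -0.73 to -0.53 (Col6a3/Col6a1) and 0.37 to 0.67 (Col18a1/Col4a1).

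No paired analysis was possible because the mouse numbers of the labels are not shared between groups. The depth in reads is unknown, which limits what low collagens can show.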
